A study of Homo sapiens with 12 samples.

Results

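The transcripts of 10 histone demethylases of the Jumonji C (JmjC) family were followed across 3 human cancer cell lines and 2 treatments. The 10 genes, KDM2A, KDM2B, KDM3A, KDM3B, KDM4A, KDM4B, KDM4C, KDM5A, KDM5B and KDM6B, were looked up under their new or older symbols among the 20545 gene symbols of the expression table. Each was found in exactly 1 row, 3 of them (KDM3B, KDM5B and KDM6B) under the current symbol and the others as FBXL11, FBXL10, JMJD1A, JMJD2A, JMJD2B, JMJD2C and JARID1A. The lines were HCT116 (colon carcinoma), HL60 (promyelocytic leukaemia) and SNU398 (hepatocellular carcinoma). All arrays came from cells given 5-Aza-CdR (decitabine), which traps DNA methyltransferases. The groups differed in whether it was given alone or in what the labels call Combination, with no second agent, dose or time named. Each of the 6 groups had 2 arrays, and the labels do not say whether these were separate cultures, so p-values measure the spread between these arrays, which may be technical. No untreated array was analysed here.

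JmjC demethylases remove methyl groups from histone lysines by oxidation. They use molecular oxygen, iron in its ferrous form and 2-oxoglutarate, a citric acid cycle metabolite, and ascorbate helps to keep their iron reduced in vitro. The subfamilies differ in the lysine they act on: KDM2 enzymes act on methylated H3K36, KDM3 on the lower methyl states of H3K9, KDM4 on trimethylated H3K9 and H3K36, KDM5 on methylated H3K4 and KDM6 on methylated H3K27. KDM2A and KDM2B also carry a zinc finger that binds CpG sites free of methylation, which ties them to the DNA mark that 5-Aza-CdR removes.

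Most start sites of these genes lie in CpG-rich sequence, the setting in which promoter methylation is usually studied. RefSeq promoter windows of build GRCh38.p14, reaching from 250 bases before to 50 bases after a start, were found for all 10 genes, 16 windows in all. The ratio of observed to expected CpG was over 0.6 in 14 of the 16 windows, against 48.8% of the 35116 windows of all genes. The exceptions were the second windows of KDM2A (0.404) and KDM6B (0.0973), whose first windows had 1.26 and 0.682. The window of KDM5B had 34 CpG sites and a ratio of 1.15, and that of KDM4B 43 sites and 1.00, against a median of 14 sites over all windows. ACGTG, a form of the core of the element bound by hypoxia-inducible factors, was searched on both strands, so that a palindromic CACGTG counts on each. The form GCGTG was not searched. ACGTG was found in 3 of the 16 windows, 1 each of KDM2B, KDM4B and KDM4C, and in 21.4% of all windows. DNA methylation was not measured on these arrays.

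The 250 bases upstream of a start are given for KDM5B, which of the 10 had the widest differences between lines, for KDM5A, which of the 10 had the largest average difference between treatments, and for KDM4B, whose window holds CACGTG and whose replicates were far apart in HL60. Capitals mark CpG sites. The KDM5B stretch lies at chr1:202808422-202808671 on the minus strand and holds 27 sites, that of KDM5A at chr12:389321-389570 on the minus strand with 18, and that of KDM4B at chr19:4968863-4969112 on the plus strand with 36.
KDM5B: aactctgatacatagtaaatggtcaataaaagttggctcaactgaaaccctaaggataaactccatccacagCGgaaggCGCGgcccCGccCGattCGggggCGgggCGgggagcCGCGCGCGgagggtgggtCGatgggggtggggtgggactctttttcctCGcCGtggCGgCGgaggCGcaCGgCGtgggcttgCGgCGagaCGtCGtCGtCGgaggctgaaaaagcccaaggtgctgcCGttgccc
KDM5A: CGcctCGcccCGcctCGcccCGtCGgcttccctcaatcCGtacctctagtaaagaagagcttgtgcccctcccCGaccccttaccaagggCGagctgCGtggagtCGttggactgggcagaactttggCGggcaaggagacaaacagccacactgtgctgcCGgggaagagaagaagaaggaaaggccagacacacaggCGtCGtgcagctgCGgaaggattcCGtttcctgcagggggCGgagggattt
KDM4B: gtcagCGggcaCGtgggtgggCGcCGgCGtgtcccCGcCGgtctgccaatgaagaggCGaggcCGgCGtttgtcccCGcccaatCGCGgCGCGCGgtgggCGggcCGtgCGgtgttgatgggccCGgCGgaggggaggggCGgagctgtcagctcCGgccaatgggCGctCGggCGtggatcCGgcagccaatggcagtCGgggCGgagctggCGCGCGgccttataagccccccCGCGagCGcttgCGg

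**Figure D1:**
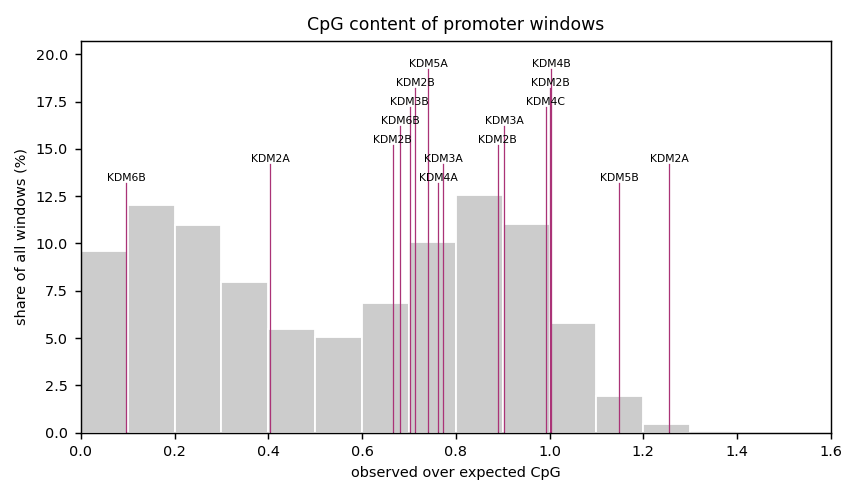
Bars give the share of all RefSeq promoter windows (y axis, percent) by their ratio of observed to expected CpG (x axis), and each line marks 1 of the 16 windows of the 10 genes. All but 1 window of KDM2A (0.404) and 1 of KDM6B (0.0973) lie above 0.6.

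Expression values are log2 units as deposited, 1 per symbol and array. Values of exactly 0, of which the HCT116 replicate 2 arrays list 4938 each, were treated as not measured. Among the 10 genes this touched KDM4C, which is listed at 0 on both HCT116 replicate 2 arrays. These arrays also stood apart in scale: over the genes measured on all arrays their median was 8.04 and 8.05, against 9.08 to 9.40 on the other 10. In all 3 lines the replicate 2 pair (5-Aza-CdR and combination of the same number) departed from the replicate 1 pair in the same way for both treatments, so differences are given within pairs as well as between groups. Of the cell type markers, 5 of 6 promyelocyte genes were higher on every HL60 array than on any array of the other lines that measured them (PRTN3 at 13.90 to 15.38, the other 4 without an HCT116 value). In HCT116 the same held for 4 of 7 colon epithelial genes, with KRT18 and CDH1 measured on 2 HCT116 arrays only. CDX2 was lower in HCT116 (8.48 to 8.60) than in SNU398 (9.16 to 9.54). EPCAM overlapped between these lines (8.16 to 12.16 and 10.90 to 11.47), and VIL1 has no row. Of 6 liver genes only GPC3 set SNU398 apart (9.38 to 9.52). ALB was at 8.17 to 8.27 in SNU398 and at 8.38 to 8.99 in HL60. SERPINA1 was at 7.67 to 7.76 in SNU398 and at 10.84 to 11.56 in HL60. AFP and TTR have no row.

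**Figure D2:**
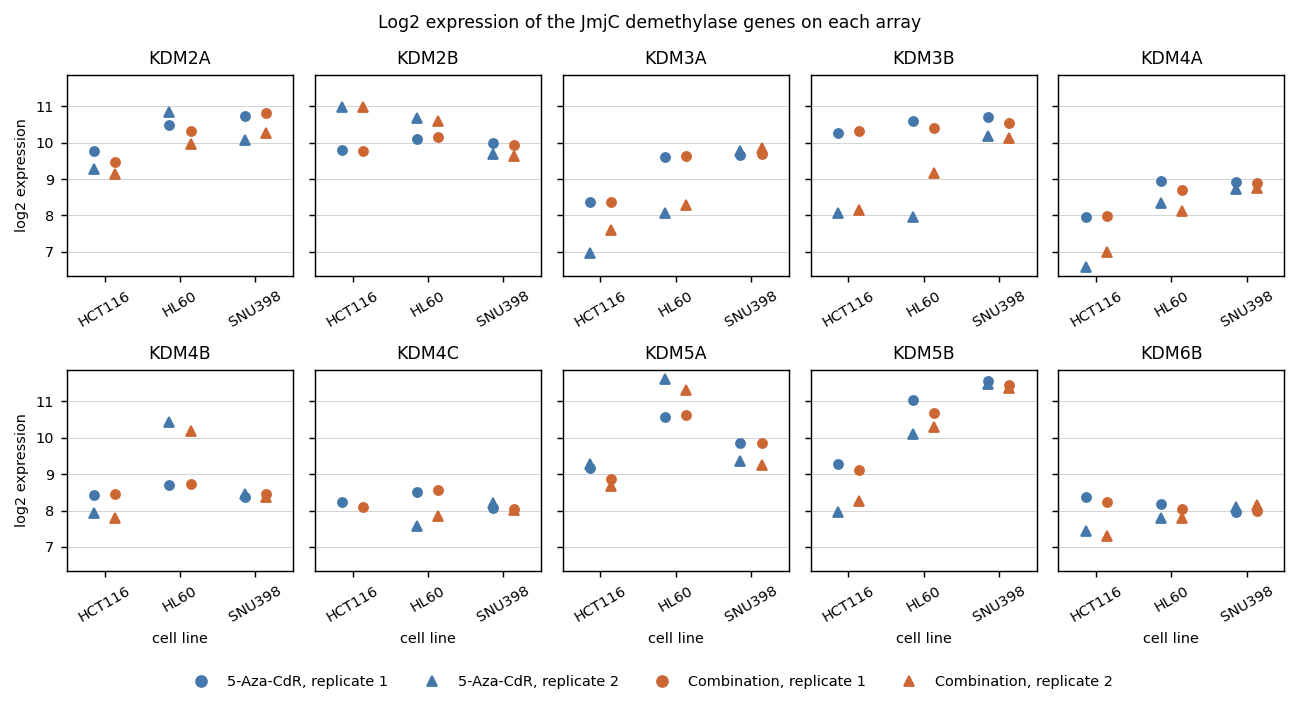
Each panel shows 1 gene, with log2 expression on the y axis and the cell lines on the x axis. Points are single arrays, coloured by treatment and shaped by replicate number; KDM4C has no replicate 2 value in HCT116. Replicates are furthest apart for KDM3B in HCT116 and HL60 and for KDM4B in HL60, and the treatments of 1 replicate for KDM3B (1.19) and KDM2A (-0.88) in pair 2 of HL60.

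No transcript of the 10 was called different between the combination and 5-Aza-CdR alone, in any line or averaged over the lines, and in SNU398 every pair differed by at most 0.20 in log2. limma was fitted to the 6 group means over the whole table. It called 0 of the 10 genes and 0% of all genes in each line (all adjusted p = 1.00). At an unadjusted p under 0.05 stood 0 of the 10, against 0.118%, 0.134% and 0.165% of all genes in HCT116, HL60 and SNU398. This fit leaves out the pairing, so the gap between replicates enters its spread and it could hardly call any gene. Taking the replicate number as a block also called 0 of 10 and 0% of all genes; at an unadjusted p under 0.05 it had KDM5A in HCT116, KDM2A in HL60 and KDM5A in the average over the lines (adjusted p = 0.648, 0.534 and 0.610 in limma), 1 of 10 in each, where 7.63%, 7.30% and 7.20% of all genes stood. A fit to the pairs of 1 line called 0 of the 10 in SNU398, where 3.66% of all genes were called, 0 of 9 in HCT116 (0.202%) and 0 of 10 in HL60 (0%). The sizes were those of an ordinary gene: the median absolute pair difference of the 10 genes was 0.138 in HCT116, 0.129 in HL60 and 0.0634 in SNU398, against 0.137, 0.160 and 0.0804 over all genes. Their median signed difference was -0.04 in HCT116, -0.07 in HL60 and -0.03 in SNU398, against 0.02, 0.02 and -0.00 over all genes. Intervals depended on the fit: the 95% confidence interval for KDM5B in SNU398 ran from -1.28 to 1.06 without the block, from -0.55 to 0.33 with it and from -0.28 to 0.06 in the fit to SNU398 pairs.

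**Figure D3:**
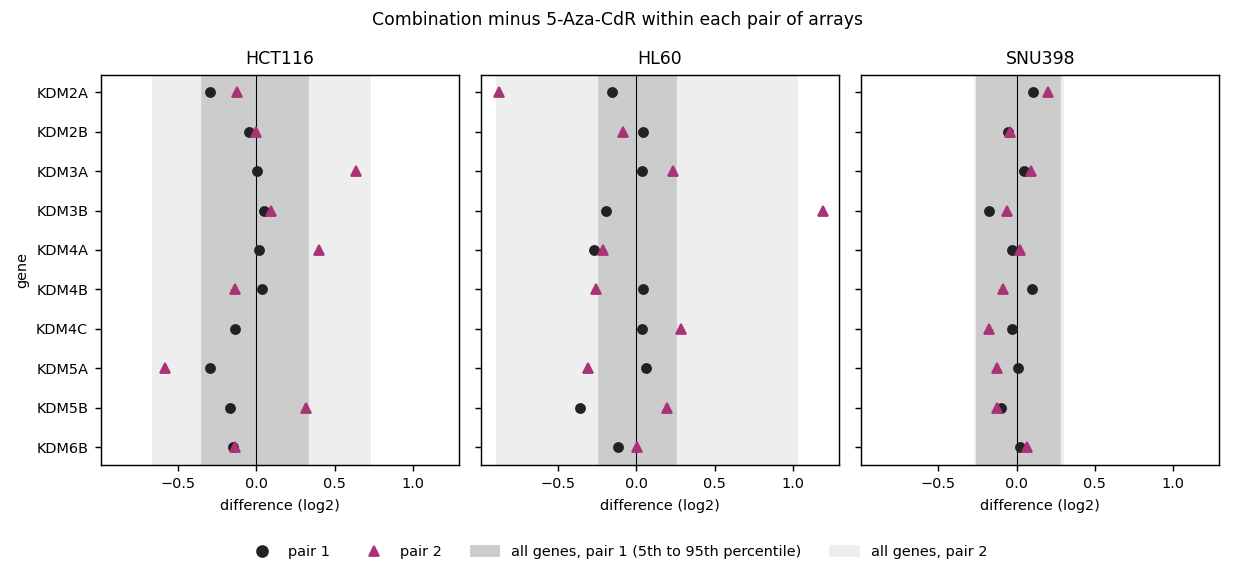
Combination minus 5-Aza-CdR in log2 (x axis) for each gene (y axis) in the 3 lines; circles are pair 1 and triangles pair 2, and the bands span the 5th to the 95th percentile of all genes in each pair. The points outside their own pair's band are KDM4A (-0.27) and KDM5B (-0.36) of pair 1 and KDM3B (1.19) of pair 2, all in HL60.

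KDM2A and KDM2B, the H3K36 demethylases that recognise unmethylated CpG sites, differed in how they stood across lines. In each pair below, the 5-Aza-CdR array is given first and the combination second. KDM2A was at 9.77 and 9.48 in pair 1 of HCT116 and at 9.27 and 9.15 in pair 2. In HL60 it was at 10.47 and 10.32, and at 10.83 and 9.96, and in SNU398 at 10.72 and 10.82, and at 10.07 and 10.27. The HCT116 arrays thus lay below all arrays of the other lines in deposited units, while HL60 and SNU398 overlapped. By rank within the array, HCT116 (71.6 to 76.3 percentile) overlapped HL60 (74.1 to 84.5). These ranks were taken over unlike sets of measured symbols. Whether the lower scale of HCT116 has a part in this separation was not tested. With the combination KDM2A was lower in both pairs of HCT116 (-0.29 and -0.12) and of HL60 (-0.15 and -0.88) and higher in both of SNU398 (0.10 and 0.20). The difference of these responses, SNU398 minus HL60, was 0.67 ± 0.48 (SE), with an adjusted p of 1.00 in limma and 0.826 with the block.

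KDM2B, which brings a variant Polycomb complex to CpG islands, was nearly level between treatments, with pair differences from -0.09 to 0.04 over the 3 lines. Its replicates were further apart than its treatments. It stood at 9.80 and 9.76 in pair 1 of HCT116 and at 10.97 and 10.97 in pair 2, so replicate 2 was the higher by 1.19. In SNU398 its 4 arrays had a median of 9.81 and a lowest value of 9.63, and all lay below the 4 HL60 arrays at 10.10 to 10.68.

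KDM3A and KDM3B, the H3K9 demethylases of the lower methyl states, had replicates far apart in HCT116 and HL60, and KDM3B had the largest gaps of the 10 genes in both. KDM3B, whose gene lies in a region of chromosome arm 5q lost in some myeloid malignancies, was at 10.26 and 10.31 in pair 1 of HCT116 and at 8.05 and 8.15 in pair 2. In HL60 it was at 10.60 and 10.41, and at 7.97 and 9.16. In SNU398 it was at 10.71 and 10.54, and at 10.18 and 10.12. The pair 1 arrays of the 3 lines thus lay close together, and the pair 2 arrays of HCT116 and HL60 lay 2.18 and 1.94 lower. The 1.19 by which KDM3B was higher with the combination in pair 2 of HL60 was the largest difference among the 10 genes, and pair 1 went the other way (-0.19).

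KDM3A, a coactivator of nuclear receptors and a known hypoxia-induced gene, was at 8.38 and 8.38, and at 6.97 and 7.61, in HCT116. This puts it at the 40.7, 41.4, 13.5 and 35.2 percentile of those arrays. Detection above background could not be assessed, so differences of KDM3A against HCT116 rest on values that may lie near the floor. KDM3A was at 9.59 and 9.63, and at 8.07 and 8.30, in HL60, and at 9.65 and 9.69, and at 9.77 and 9.86, in SNU398. SNU398 arrays lay above all others. KDM3A was the 1 gene of the 10 whose pair differences all had the same sign, from 0.00 to 0.64. The lowest, 0.0028 in pair 1 of HCT116, was close to no difference. The share of all genes whose pairs all had the same sign was not counted. The mean of KDM3A over the lines was 0.18 ± 0.10 (SE with the block; adjusted p = 0.610 in limma), and it was smaller after quantile normalization.

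KDM4A, KDM4B and KDM4C, which act on trimethylated H3K9 and H3K36, were followed by 3 rows of the table. KDM4A was at 7.96 and 7.98 in pair 1 of HCT116 and at 6.59 and 6.99 in pair 2, which puts it at the 5.06, 5.73, 2.24 and 3.34 percentile of those arrays, so near the lower end of what they recorded. Detection above background could not be assessed, so differences of KDM4A against HCT116 rest on values that may lie near the floor. It ran from 8.13 to 8.96 in HL60 and from 8.73 to 8.92 in SNU398. With the combination it was lower in both HL60 pairs (-0.27 and -0.21) and higher in both HCT116 pairs (0.02 and 0.40).

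KDM4B, also known as a hypoxia-induced gene, was at 8.70 and 8.74 in pair 1 of HL60 and at 10.43 and 10.17 in pair 2. Replicate 2 was thus the higher by 1.58, in the opposite direction to KDM3A and KDM3B on the same arrays. In SNU398 it ran from 8.37 to 8.47, and in HCT116 from 7.79 to 8.45. KDM4C, a gene amplified in some squamous carcinomas, was at 8.23 and 8.09 on the 2 HCT116 arrays that measured it, ran from 7.57 to 8.56 in HL60 and from 8.03 to 8.20 in SNU398, and did not part the lines. Its treatment difference in HCT116 (-0.14) comes from pair 1 alone. As for KDM4A, detection above background could not be assessed, and KDM4C values may lie near the floor.

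KDM5A and KDM5B, demethylases of H3K4, parted the lines most. KDM5B, found at high level in many breast carcinomas, was at 9.28 and 9.12 in pair 1 of HCT116 and at 7.95 and 8.26 in pair 2. It was at 11.05 and 10.68, and at 10.09 and 10.29, in HL60. In SNU398 it was at 11.55 and 11.45, and at 11.48 and 11.36. The lines did not overlap: SNU398 (11.46 ± 0.08, SD, n = 4 arrays) lay above HL60 (10.53 ± 0.42) and HL60 above HCT116 (8.65 ± 0.65). With the combination it was lower in both SNU398 pairs (-0.10 and -0.13) and in pair 1 of the other lines (-0.16 in HCT116 and -0.36 in HL60), and higher in their pair 2 (0.32 and 0.19).

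KDM5A, first described as a binding partner of the retinoblastoma protein, was at 10.57 and 10.63 in pair 1 of HL60 and at 11.62 and 11.31 in pair 2. It was at 9.86 and 9.87, and at 9.37 and 9.24, in SNU398, and at 9.16 and 8.86, and at 9.27 and 8.68, in HCT116. HL60 lay above both other lines on every array, while HCT116 and SNU398 overlapped at their edges (9.27 against 9.24). Of the 9 demethylase genes measured on all 12 arrays, KDM5A had the largest average treatment difference, -0.21 ± 0.08 (SE with the block; adjusted p = 0.610 in limma). It was lower with the combination in both HCT116 pairs (-0.29 and -0.58), and by 0.31 and 0.12 in pair 2 of HL60 and of SNU398, but not in their pair 1 (0.06 and 0.01).

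KDM6B, the H3K27 demethylase that inflammatory signals induce in macrophages, lay within a narrow and low range. It ran from 7.29 to 8.38 in HCT116, from 7.78 to 8.17 in HL60 and from 7.96 to 8.15 in SNU398, between the 21.2 and 40.9 percentile of the arrays throughout. Markers of other cell types lay close to it (KRT8 in HL60 at 7.56 to 7.97, AZU1 in SNU398 at 7.84 to 7.97). Detection above background could not be assessed, so KDM6B values may lie near the floor. Its pair differences ran from -0.15 to 0.06. The lines overlapped.

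Between lines, the widest difference among the 10 genes was that of KDM5B, 2.81 lower in HCT116 than in SNU398, but none of the 10 genes passed the test. Each pair was averaged to 1 value, which gave 2 values per line, and limma was fitted to these over the whole table. The KDM5B difference, HCT116 minus SNU398, was -2.81 ± 0.46 (SE; 95% interval -4.01 to -1.60; adjusted p = 0.120 in limma), and HCT116 minus HL60 was -1.88 ± 0.46 (adjusted p = 0.147). KDM5A was 1.45 ± 0.39 higher in HL60 than in SNU398 (95% interval 0.42 to 2.47; adjusted p = 0.182 in limma), and HCT116 minus HL60 was -2.04 ± 0.39 (adjusted p = 0.10). KDM2A, HCT116 minus SNU398, was -1.05 ± 0.31 (adjusted p = 0.242 in limma), KDM4A, near the lower end of the HCT116 arrays, -1.44 ± 0.47 (0.270) and KDM3A -1.91 ± 0.62 (0.263). KDM4B, HL60 minus SNU398, was 1.09 ± 0.58 (adjusted p = 0.475 in limma), and 0.30 without HL60 replicate 2.

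limma called 0 of the 10 genes in HL60 minus SNU398, where 2.56% of all genes were called, 0 in HCT116 minus SNU398 (0.167%) and 0 in HCT116 minus HL60 (0.979%). At an unadjusted p under 0.05 stood 1, 4 and 3 of the 10, against 15.2%, 15.7% and 18.1% of all genes. All 4 arrays of a line lay beyond all 4 of the other for 5 of the 10 genes in HL60 against SNU398, 4 of 9 in HCT116 against SNU398 and 5 of 9 in HCT116 against HL60, while 44.6%, 43.2% and 31.7% of all genes did. The whole table lay lower in HCT116, with a median over genes of -0.46 against SNU398 and -0.45 against HL60, and the 10 genes had medians of -0.82 and -1.02. HCT116 arrays list 17290 symbols and the others 19402, so the line and the set of symbols listed cannot be told apart there. After quantile normalization KDM5B was -2.34 in HCT116 minus SNU398, and -2.0 with the arrays centred. KDM2A, KDM3A, KDM4A and KDM5B stayed lower in HCT116 than in both other lines under either scaling, but by less. On centred arrays the differences against SNU398 and HL60 were -0.25 and -0.20 for KDM2A, -1.11 and -0.28 for KDM3A and -0.64 and -0.37 for KDM4A. KDM4B, KDM5A and KDM6B turned to 0.53, 0.21 and 0.59 higher than in SNU398 on centred arrays. KDM2B, KDM3B and KDM6B turned to 0.78, 0.44 and 0.67 higher than in HL60.

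**Figure D4:**
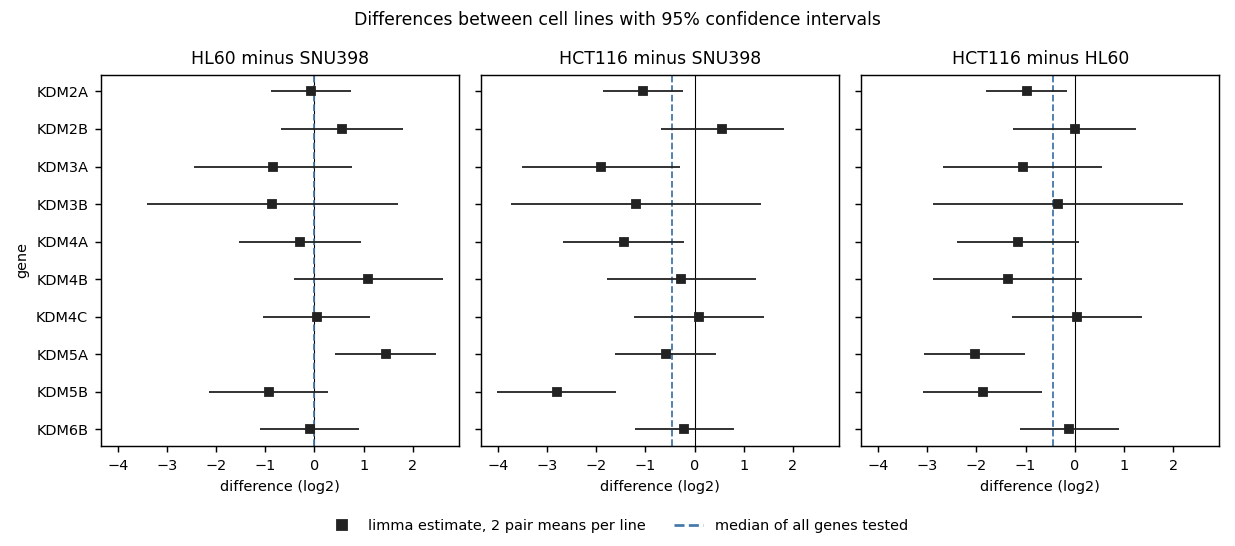
Differences between lines in log2 (x axis) for each gene (y axis); squares are limma estimates from 2 pair means per line, bars are 95% confidence intervals, and the dashed line is the median of all genes tested. KDM5B lies furthest from 0 in HCT116 minus SNU398 (-2.81), and KDM5A is the 1 gene whose interval leaves out 0 in HL60 minus SNU398.

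Calls of the 10 genes appeared under some other choices of arrays. With all 12 arrays as separate samples, which counts the arrays of a pair as independent, KDM5A and KDM5B were called in HL60 minus SNU398 (25.9% of all genes called). KDM2A, KDM3A, KDM4A and KDM5B were called in HCT116 minus SNU398 (31.4%), and KDM2A, KDM4A, KDM4B, KDM5A and KDM5B in HCT116 minus HL60 (33.8%). Without the replicate 2 arrays of HCT116 and HL60 the spread comes from SNU398 alone. KDM3A, KDM4A and KDM5B were then called in HCT116 minus SNU398 (16.1% of all genes), at -1.36, -0.86 and -2.26, and KDM3A and KDM5B in HCT116 minus HL60 (18%), at -1.23 and -1.67. None was called in HL60 minus SNU398 (22%). Leaving out replicate 2 of HCT116 or of HL60 alone called none. Without replicate 1 of HCT116, KDM4A and KDM5B were called against SNU398 (41%) and against HL60 (27.1%). That fit keeps 1 pair of HCT116, takes its spread from the other lines, and rests on the arrays of lower scale: 4838 of its 5068 calls over all genes against SNU398 were lower in HCT116, so the scale and a lower level of these genes cannot be told apart there.

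The gap between replicates exceeded the mean treatment difference for 8 of 9 genes in HCT116 (not KDM5A), 9 of 10 in HL60 (not KDM2A) and 7 of 10 in SNU398 (not KDM4B, KDM4C and KDM5B). The share of all genes was not counted. Over all genes the median absolute value of the mean treatment difference was 0.137 in HCT116, 0.160 in HL60 and 0.0804 in SNU398. These medians were also below the median absolute gap of all genes in each line. The median absolute gap, replicate 2 minus replicate 1 over both treatments, was 1.09 for 9 genes in HCT116, 0.75 for 10 in HL60 and 0.16 for 10 in SNU398, close to the 1.10 of all genes in HCT116 and the 0.15 in SNU398 and above the 0.46 in HL60. In HCT116 8 of the 9 were lower in replicate 2, with KDM2B the exception, and of all 12349 genes 1364 were higher there. In HL60 KDM2B, KDM4B and KDM5A were higher in replicate 2 by 0.51, 1.58 and 0.87 and the other 7 were below replicate 1, KDM2A by less than 0.01, while 9643 of all 19402 genes were higher. What set the replicates apart was not tested.

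**Figure D5:**
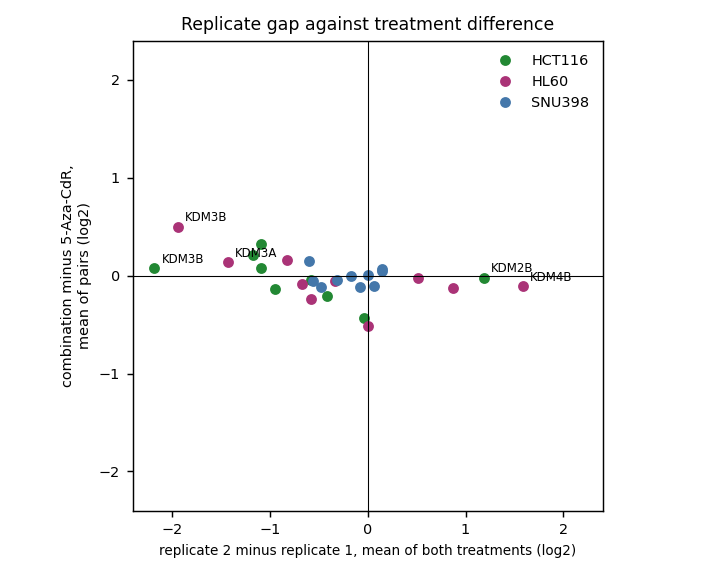
Each point is 1 gene in 1 line, with the gap between replicates on the x axis (log2) and the mean treatment difference on the y axis (log2), on equal scales. Gaps reach -2.18 (KDM3B in HCT116), while treatment differences stay between -0.52 and 0.50.

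Genes that share the chemistry, the target lysine or the complexes of these enzymes were read from the same fits. Of 19 other JmjC genes 17 were tested in HL60 and SNU398 and 15 in HCT116. None was called in the fits to all lines. The fit to SNU398 pairs alone called 1 of the 17, where 3.66% of all genes were called. This was JMJD8, a JmjC protein of the endoplasmic reticulum, 0.49 ± 0.08 (SE) higher with the combination (adjusted p = 0.0031 in limma, pairs 0.43 and 0.55). Its pairs were -0.02 and -0.45 in HL60 and -0.10 and 0.02 in HCT116. At an unadjusted p under 0.05 stood 3 of the 17 other JmjC genes in HL60 minus SNU398 and 0 of 15 in the blocked average treatment difference, against 15.2% and 7.20% of all genes, and the medians of the list were -0.04 and -0.00, against -0.01 and 0.02 over all genes. The 3 smallest p in HL60 minus SNU398 belonged to JMJD8 (1.86 ± 0.36, adjusted p = 0.0877 in limma), HSPBAP1 (1.70 ± 0.45) and KDM6A, the X-linked H3K27 demethylase (1.39 ± 0.36). In the average treatment difference with the block they belonged to KDM5C (0.23 ± 0.12), PHF2 (0.16 ± 0.09) and JARID2, a Polycomb partner without demethylase activity (0.21 ± 0.13), none called.

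Of 20 methyltransferase genes and Polycomb subunits that act on the same lysines, all 20 were tested in HL60 and SNU398 and 18 in HCT116, and limma called 0 in each contrast. At an unadjusted p under 0.05 stood 1 of the 20 methyltransferase and Polycomb genes in HL60 minus SNU398 and 1 of 18 in the blocked average treatment difference, against 15.2% and 7.20% of all genes, and the medians of the list were 0.12 and 0.02, against -0.01 and 0.02 over all genes. SETDB2, an H3K9 methyltransferase, was 2.35 ± 0.43 higher in HL60 than in SNU398 (adjusted p = 0.0775 in limma), SUV39H1 1.32 ± 0.61 and SETDB1 0.61 ± 0.34. SUZ12, a core subunit of Polycomb repressive complex 2, had an average treatment difference of 0.32 ± 0.10 with the block, above 0 in all 6 pairs (0.01 to 0.85; adjusted p = 0.610 in limma), and SETDB1 and EHMT2 had 0.15 ± 0.08 and -0.20 ± 0.11. Of 19 partners in KDM2B and KDM5 complexes 17 were tested and 0 called in limma. At an unadjusted p under 0.05 stood 0 of the 17 partners in HL60 minus SNU398 and 0 of 17 in the blocked average treatment difference, against 15.2% and 7.20% of all genes, and the medians of the list were -0.17 and 0.01, against -0.01 and 0.02 over all genes. PCGF1, the Polycomb subunit that pairs with KDM2B, was -1.48 ± 0.58 in HL60 minus SNU398 (adjusted p = 0.336 in limma), MORF4L1 -1.01 ± 0.44 and RING1 -0.57 ± 0.35, while USP7, MORF4L1 and HDAC2 had average treatment differences of -0.20 ± 0.10, 0.12 ± 0.07 and 0.13 ± 0.09.

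Among the 12349 genes measured on all arrays, the profiles over the 6 group means closest to that of KDM5B, once each gene was centred, were those of PSMF1, PDIA6 and LRPPRC, at root mean square differences of 0.06, 0.08 and 0.10. Those closest to KDM5A were C9ORF37, ZNF419 and RAB5B, at 0.04, 0.07 and 0.07. These distances are dominated by the differences between lines.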

How the data were processed

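Expression was read from the deposited table of log2 values, 1 per gene symbol for each of 12 arrays (6 groups of 2). limma was used by the authors, per the submitters' processing notes. For its version, the background correction, the normalization and the choice of probe per gene, the entry is "not given in the sources used here". A table of bead signals holds 44 columns for 11 arrays whose names match no label, and it was not used. Depth has no counterpart on arrays, and 2 arrays per group limit the precision. Exact zeros were set to not measured.

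Models were fitted with limma 3.58.1 in R 4.3.3 over all genes with estimable contrasts, with Benjamini-Hochberg adjustment. All tests were two-sided, and a gene was called at an adjusted p under 0.05. Treatment differences came from 6 group means without pairing (6 residual degrees of freedom). Lines were compared on pair means (3 residual degrees of freedom). Arrays with the same replicate number deviated together from their group means (r = 0.907, 0.883 and 0.841 across genes in HCT116, HL60 and SNU398), so the replicate number marks pairs, and the fit with it as a block is given where it adds a value. The script was tested on simulated data with noise drawn independently for each array. That test held no gap between replicates, so it cannot show what the fits could call on these arrays.

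The 10 genes were named in every comparison. From each gene list were named the 3 genes with the smallest p in HL60 minus SNU398 and the 3 in the blocked average treatment difference; JMJD8 in the pairs of SNU398 was added after its value was seen. For likeness, the 3 nearest profiles were taken for the gene with the widest range of line means and for the gene with the largest average pair difference. The members and lists were chosen with earlier results of these data known. Alternatives were other scalings, filters, treatment of zeros, variance models, pairing and arrays left out. Promoter sequences are from RefSeq, build GRCh38.p14, matched by symbol.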

Additional observations from a re-analysis of the deposited data

Results flagged for a closer look

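The 2 pairs of a line agreed in sign for 77.8%, 40% and 70% of the measured genes among the 10 in HCT116, HL60 and SNU398. Over all genes they agreed for 56.5%, 51.8% and 60.3%. For 5 genes both pairs of one line moved one way with the combination and both pairs of another the opposite way, and the share of all genes that did so was not counted. The difference of the 2 responses, in log2, was 0.3605 for KDM2A in SNU398 minus HCT116 and 0.6686 in SNU398 minus HL60. It was -0.1901 for KDM3B in SNU398 minus HCT116, -0.4499 for KDM4A in HL60 minus HCT116, -0.2641 for KDM4C in SNU398 minus HL60 and 0.1852 for KDM6B in SNU398 minus HCT116. None passed the limma test of the difference itself (all adjusted p = 1.00). With the replicate number as a block the adjusted p was 0.826 for KDM2A in SNU398 minus HL60, 0.938 for KDM2A in SNU398 minus HCT116 and 0.949 for KDM4A.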

How the results depend on the processing

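None of the 10 genes was called in a treatment contrast under any alternative run, and the replicate block, which also called 0, changed no call. The median treatment difference of the genes in HL60, -0.0712, was -0.0930 after quantile normalization, -0.0999 with arrays centred, -0.0836 with a mean log2 of at least 9 and -0.0404 without replicate 2 of HCT116 and HL60 (added after seeing the data). In SNU398 it was -0.0264, and -0.0575 with a mean log2 of at least 9. Leaving out 1 array at a time moved the HCT116 median from -0.4210 to 0.3364, the HL60 median from -0.3245 to 0.1005 and the SNU398 median from -0.1235 to 0.0606, since an unpaired array then meets the gap between replicates. Between lines, 0 genes were called in each contrast on pair means. With all arrays as separate samples 2 were called in HL60 minus SNU398, 4 in HCT116 minus SNU398 and 5 in HCT116 minus HL60. Without replicate 2 of HCT116 and HL60 these counts were 0, 3 and 2, and leaving out 1 pair at a time gave 0, 0 to 2 and 0 to 2, both maxima without HCT116 replicate 1.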
